A study of Mus musculus with 9 samples.

Results

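The nuclear genes for the respiratory chain and the ATP synthase were followed in liver RNA of C57BL/6 mice. They were chosen by mouse symbol alone, as every gene whose symbol begins with Nduf, Uqcr, Cox4 to Cox8 or Atp5, together with Sdha to Sdhd, Cyc1 and Cycs. A mean of at least 10 in a deposited table was also required. In all, 94 of 16521 gene identifiers matched by symbol and 91 of them reached this mean. They comprised 37 subunits and 8 assembly factors of complex I, 4 subunits of complex II, 10 genes of complex III with cytochrome c, 15 of complex IV and 17 of the ATP synthase. Among the genes of the lowest mean, Cox7a1 with 11.3 lay just inside the minimum, whereas Cox6a2 with 6.71, Cox4i2 with 5.07 and Cox8b with 0.449 lay outside it.

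The study held 3 groups of 3 liver samples. SAR mice had fatty liver induced by a methionine-choline-deficient (MCD) diet and received a high dose of sarsasapogenin (SAR), a steroidal sapogenin, whose amount the labels do not state. Model mice received the MCD diet, which deprives the liver of nutrients it needs to export fat, without SAR. Normal mice were given saline, and their titles call them wt, so diet and any handling by group cannot be told apart. The labels give neither age nor time, and none of them ties a sample to a separate mouse. The p-values set differences between group means against the spread of these samples within groups. There is thus no way to tell technical from biological spread.

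The respiratory chain passes electrons from NADH (complex I) and succinate (complex II) through complex III and cytochrome c to oxygen at complex IV, and the proton gradient that complexes I, III and IV build drives the ATP synthase. Most subunits are encoded in the nucleus and imported, whereas a small set, including the catalytic core of complex IV, is encoded in mitochondrial DNA. Hepatocytes are rich in mitochondria and use the chain to oxidise fat, and altered respiratory chain function is a known feature of fatty liver disease. Nuclear genes of the chain often carry promoter sites for NRF1 and for GABP, an ETS-family factor, both of which act with the PGC-1 coactivators.

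The promoters of 5 genes are shown because their genes carry the changes described below or the motifs searched. They are the windows from 250 bases before to 50 bases after the start of the gene, from RefSeq on GRCm38.p6, printed along the strand of the gene. Capitals mark the NRF1 motif, a palindrome, in Ndufaf4 and Uqcrc1, and the ETS motif CCGGAAG or its reverse complement in Sdhd and Ndufs3. Sdha held neither motif in this window. The windows are chr9:50603800-50604099 on the minus strand for Sdhd, chr13:74350191-74350490 on the minus strand for Sdha, chr4:24897833-24898132 on the plus strand for Ndufaf4, chr9:108936398-108936697 on the plus strand for Uqcrc1 and chr2:90904672-90904971 on the minus strand for Ndufs3.
Sdhd: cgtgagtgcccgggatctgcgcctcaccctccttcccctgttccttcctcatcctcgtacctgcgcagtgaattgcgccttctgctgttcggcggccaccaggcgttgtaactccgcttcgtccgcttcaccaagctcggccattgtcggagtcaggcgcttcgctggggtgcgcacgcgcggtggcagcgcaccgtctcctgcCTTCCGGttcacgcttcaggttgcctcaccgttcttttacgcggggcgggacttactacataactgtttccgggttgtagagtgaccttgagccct
Sdha: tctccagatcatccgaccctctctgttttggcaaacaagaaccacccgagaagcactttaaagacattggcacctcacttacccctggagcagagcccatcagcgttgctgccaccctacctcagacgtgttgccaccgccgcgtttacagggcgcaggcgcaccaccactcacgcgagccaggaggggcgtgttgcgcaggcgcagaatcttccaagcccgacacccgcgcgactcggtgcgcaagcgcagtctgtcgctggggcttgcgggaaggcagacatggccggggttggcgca
Ndufaf4: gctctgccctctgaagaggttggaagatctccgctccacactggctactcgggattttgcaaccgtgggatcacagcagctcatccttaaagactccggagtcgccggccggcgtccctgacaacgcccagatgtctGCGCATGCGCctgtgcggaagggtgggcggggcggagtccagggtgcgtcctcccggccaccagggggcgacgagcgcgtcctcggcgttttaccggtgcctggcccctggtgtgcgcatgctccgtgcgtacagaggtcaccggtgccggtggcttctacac
Uqcrc1: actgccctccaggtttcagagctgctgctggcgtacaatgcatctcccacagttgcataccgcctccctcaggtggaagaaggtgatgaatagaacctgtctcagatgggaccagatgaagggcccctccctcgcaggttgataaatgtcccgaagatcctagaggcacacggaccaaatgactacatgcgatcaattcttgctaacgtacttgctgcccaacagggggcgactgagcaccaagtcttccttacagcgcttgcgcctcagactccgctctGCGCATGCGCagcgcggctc
Ndufs3: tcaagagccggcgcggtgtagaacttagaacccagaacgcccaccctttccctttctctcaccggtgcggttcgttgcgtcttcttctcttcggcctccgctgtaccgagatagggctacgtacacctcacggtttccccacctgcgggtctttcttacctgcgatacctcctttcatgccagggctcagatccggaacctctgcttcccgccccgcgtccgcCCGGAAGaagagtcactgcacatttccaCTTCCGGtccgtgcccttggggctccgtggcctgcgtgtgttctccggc

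Of the 91 genes 73 were matched in the RefSeq promoters, with 78 windows. The NRF1 motif stood in 7 of these 78 promoters (8.97%), against 319 of 32851 promoters in the table (0.971%). The ETS motif on either strand stood in 18 of 78 (23.1%), against 8.86% of all promoters. Both motifs were present in the promoters of Atp5k and Cox6a1. Among 17 promoters of genes lower in the model group, the NRF1 motif stood in 2 and the ETS motif in 3. Among 59 promoters of genes that did not pass in that comparison, they stood in 5 and 15. A match describes letters in a window and is not evidence of binding.

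Values are normalised reads, that is, whole reads recovered from the deposited group means and divided by a size factor of their library. Library a of each group has the highest size factor and library c the lowest, since the deposited data carry no replicate number. Summed over all genes, the SAR libraries together held between 36131090 and 37428958 reads, the model libraries between 40231727 and 41475588, and the normal libraries between 43073164 and 45981964. Of these 53.1%, 71.4% and 51.9% were recovered in the SAR, model and normal groups, and the rest belonged to at most 94 genes that were not solved in some library. Of the 91 genes 89 were tested with limma among 12301 genes. Atp5b was not recovered in the normal group, and Cox7a1 had a mean under 10 over the 9 libraries. How reads that match several places were counted is not given, and many of these genes have processed pseudogenes, so levels of low genes such as Atp5o are uncertain.

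In the comparison of model with normal livers, the genes lower in the model group made up 2 of 4 in complex II and 6 of 10 in complex III with cytochrome c, but 7 of 37 complex I subunits, 3 of 14 in complex IV and 3 of 16 in the ATP synthase. At an adjusted p under 0.05, 23 of 89 genes were lower (25.8%) against 21.9% of all genes tested, and 1 was higher (Ndufa4l2) against 21.4%, while 43.2% of all genes passed in either direction. The share of genes lower was thus close to that of all genes. Their median log2 fold change was -0.22, against 0.01 over all genes tested. Every model library lay below every normal library for 29 of the 89, against 27.0% of all genes, and above for 2, against 27.0%. With a minimum mean of 50, 26.8% of 9871 genes were lower and 18.6% higher, with a median of -0.11.

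Genes higher in SAR than in model livers were found in every complex, from 4 of 14 in complex IV to 3 of 4 in complex II, with a positive median in each. In this comparison 39 of 89 genes were higher (43.8%) against 13.7% of all genes tested, and 1 was lower (Cox6b2) against 14.5%, while 28.1% of all genes passed in either direction. The median log2 fold change was 0.55, against 0.00 over all genes, and 86 of 89 fold changes were positive. Every SAR library lay above every model library for 57 genes, against 21.1% of all genes, and below for 2, against 23.8%. With a minimum mean of 50, 17.0% of 9871 genes were higher and 13.0% lower, with a median of 0.10. Both comparisons share the model libraries. Of the 23 genes lower in the model group, 14 (60.9%) were also higher with SAR, and these made up 35.9% of the 39. No matching share over all genes is given here, so this overlap cannot be read as particular to these genes.

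The counts depended on single libraries. The count lower in the model group was 10 without model library a, 10 without model library b, 12 without normal library a and 14 without normal library b. The shares of all genes lower were then 15.2%, 15.3%, 15.9% and 17.2%. Of 89 genes, each of these counts lay below that share. The count higher with SAR was 6, 11 and 61 without model library a, b and c, against 5.67%, 6.39% and 19.3% of all genes. It was 23, 8 and 13 without SAR library a, b and c, against 12.6%, 5.84% and 7.54%. Without model library a, 6 of 89 genes was thus close to the share of all genes. Of the 24 genes that passed in model over normal, 10 passed whichever library was left out, namely Ndufs1, Ndufv1, Ndufa9, Ndufb8, Ndufaf4, Sdha, Sdhd, Uqcrc2, Cycs and Atp5a1. Of the 40 that passed in SAR over model, this held for 6, namely Ndufa9, Ndufs3, Ndufb6, Ndufb11, Ndufaf1 and Uqcrc2. No matching share over all genes that passed is given here, so 10 of 24 and 6 of 40 cannot be read as particular to these genes. The authors' deposited table had 17 of the 91 genes lower in the model group, against 10.3% of all genes, and 20 higher with SAR, against 6.79%. It had 0 lower with SAR, against 9.76%, where limma called 1.

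**Figure D1:**
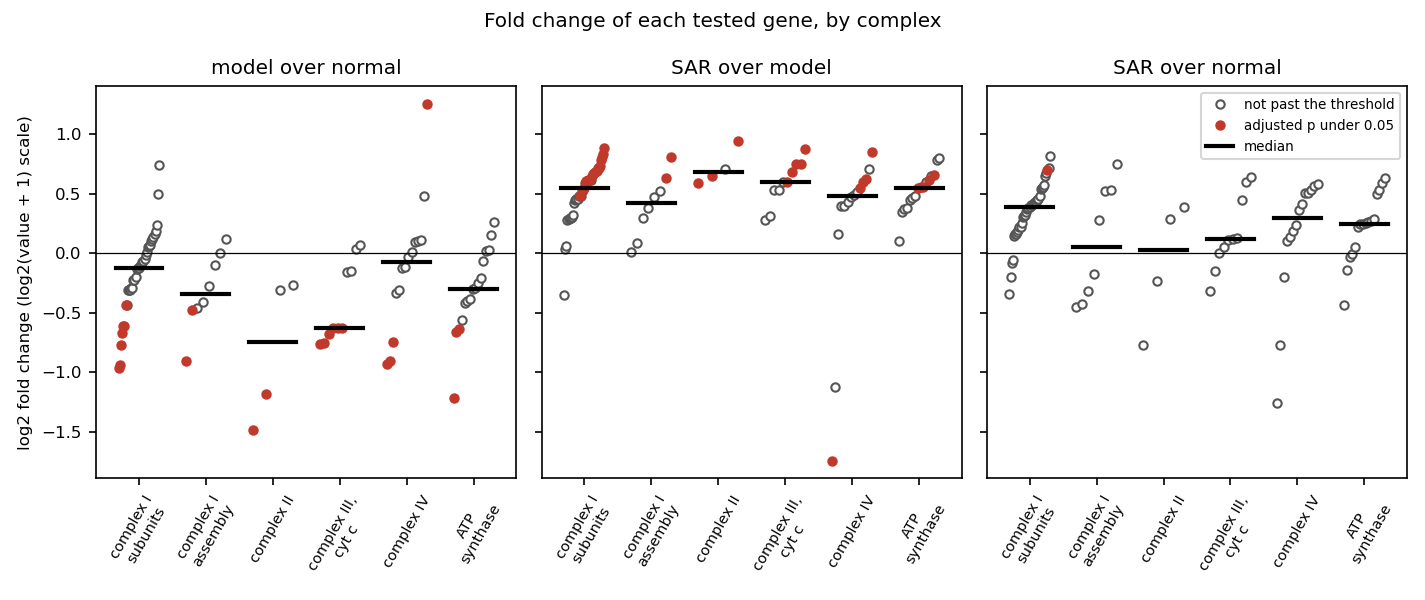
Log2 fold change on the log2(value + 1) scale (y axis) of each of the 89 tested genes, by complex (x axis), for model over normal, SAR over model and SAR over normal. Filled points passed an adjusted p under 0.05, open points did not, and bars are medians. In SAR over model nearly all points lie above 0, whereas in model over normal the passing points lie below 0 except Ndufa4l2.

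The model libraries differed among themselves in these genes. Summed over complex I subunits, SAR libraries a, b and c held 140%, 118% and 119% of the mean of the normal libraries, model libraries a, b and c held 70.0%, 87.7% and 99.8%, and normal libraries held 101%, 101% and 97.5%. In complex II the sums were 78.3%, 105% and 98.8% in SAR libraries a, b and c, 44.0%, 54.5% and 70.5% in model libraries a, b and c, and 104%, 101% and 95.2% in normal libraries. The ATP synthase sum holds 16 of its 17 genes and lacks the abundant Atp5b, whose mean in normal livers was 17811 in the authors' deposited table, against 44509 for the sum of the other 16 in normal libraries on the scale used here. In each complex model library a was lowest and model library c highest of the model group. Over the 89 genes the median log2 difference of model library a from the other libraries of its group was -0.46, with 5 genes above them. For model library c it was 0.37, with 80 genes above.

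**Figure D2:**
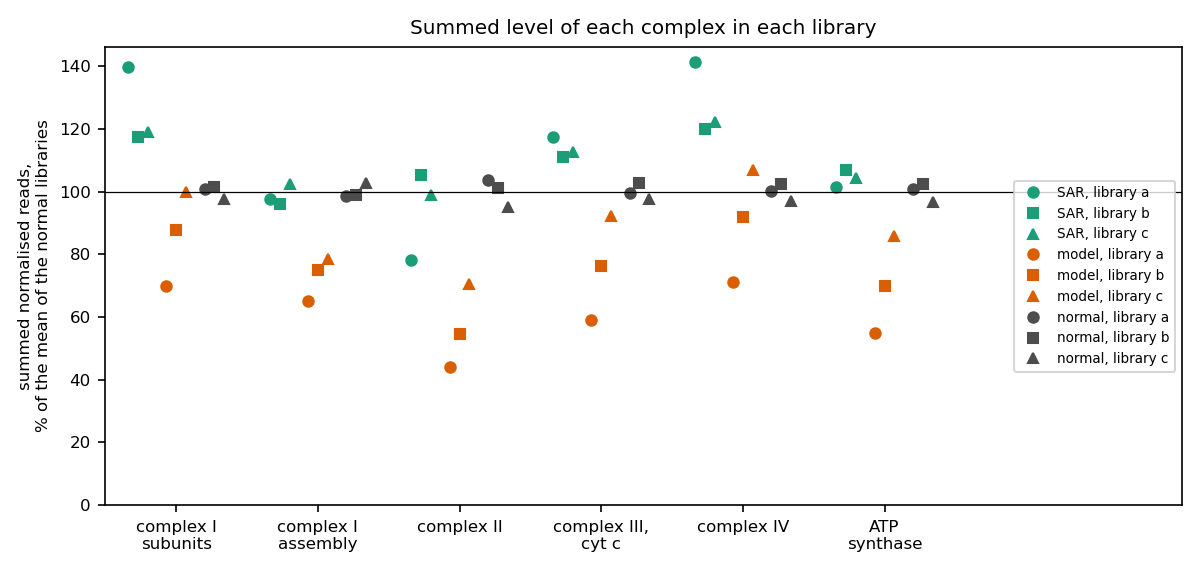
Summed normalised reads of each complex in each library, in percent of the mean of the 3 normal libraries (y axis, from 0), by complex (x axis), without Atp5b in the ATP synthase. Colours mark the groups SAR, model and normal, and shapes mark libraries a, b and c. The model libraries spread from 44.0% to 70.5% in complex II and from 71.2% to 107% in complex IV, with library a lowest in each complex.

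Markers of liver cell types moved with the groups. The authors' deposited table had 8 of 10 hepatocyte markers lower in the model group than in normal, with a median log2 of -1.17, and 9 of 10 higher in SAR than in model, with a median of 1.0. Of these markers only Hnf4a, a hepatocyte transcription factor, could be tested per library. It held 10203 to 12243 normalised reads in SAR libraries, 4166 to 5206 in model libraries and 11812 to 12800 in normal libraries.

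Of 10 macrophage markers 8 were higher and 1 lower in model than in normal, and 9 were lower in SAR than in model. Their sum ranged from 5029 to 6867 in SAR libraries, from 17708 to 19139 in model libraries and from 3953 to 4340 in normal libraries. All 6 stellate cell markers were higher in model than in normal. They summed to 1260 to 3353 in SAR libraries, to 19553, 17419 and 4061 in model libraries a, b and c, and to 152 to 1225 in normal libraries. The 6 cholangiocyte markers, also all higher, summed to 768 to 1700 in SAR libraries, to 9628, 10934 and 2003 in model libraries a, b and c, and to 468 to 853 in normal libraries. Model library c was thus nearer the other groups in both lists. Neutrophil markers summed to 248 to 643 in SAR libraries, to 1325 to 2858 in model libraries, and to 118, 269 and 7643 in normal libraries a, b and c. No marker of these lists was at 0 in all libraries. In whole liver, fewer hepatocytes and less RNA per hepatocyte cannot be told apart, and the part of these markers in the results was not tested.

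**Figure D3:**
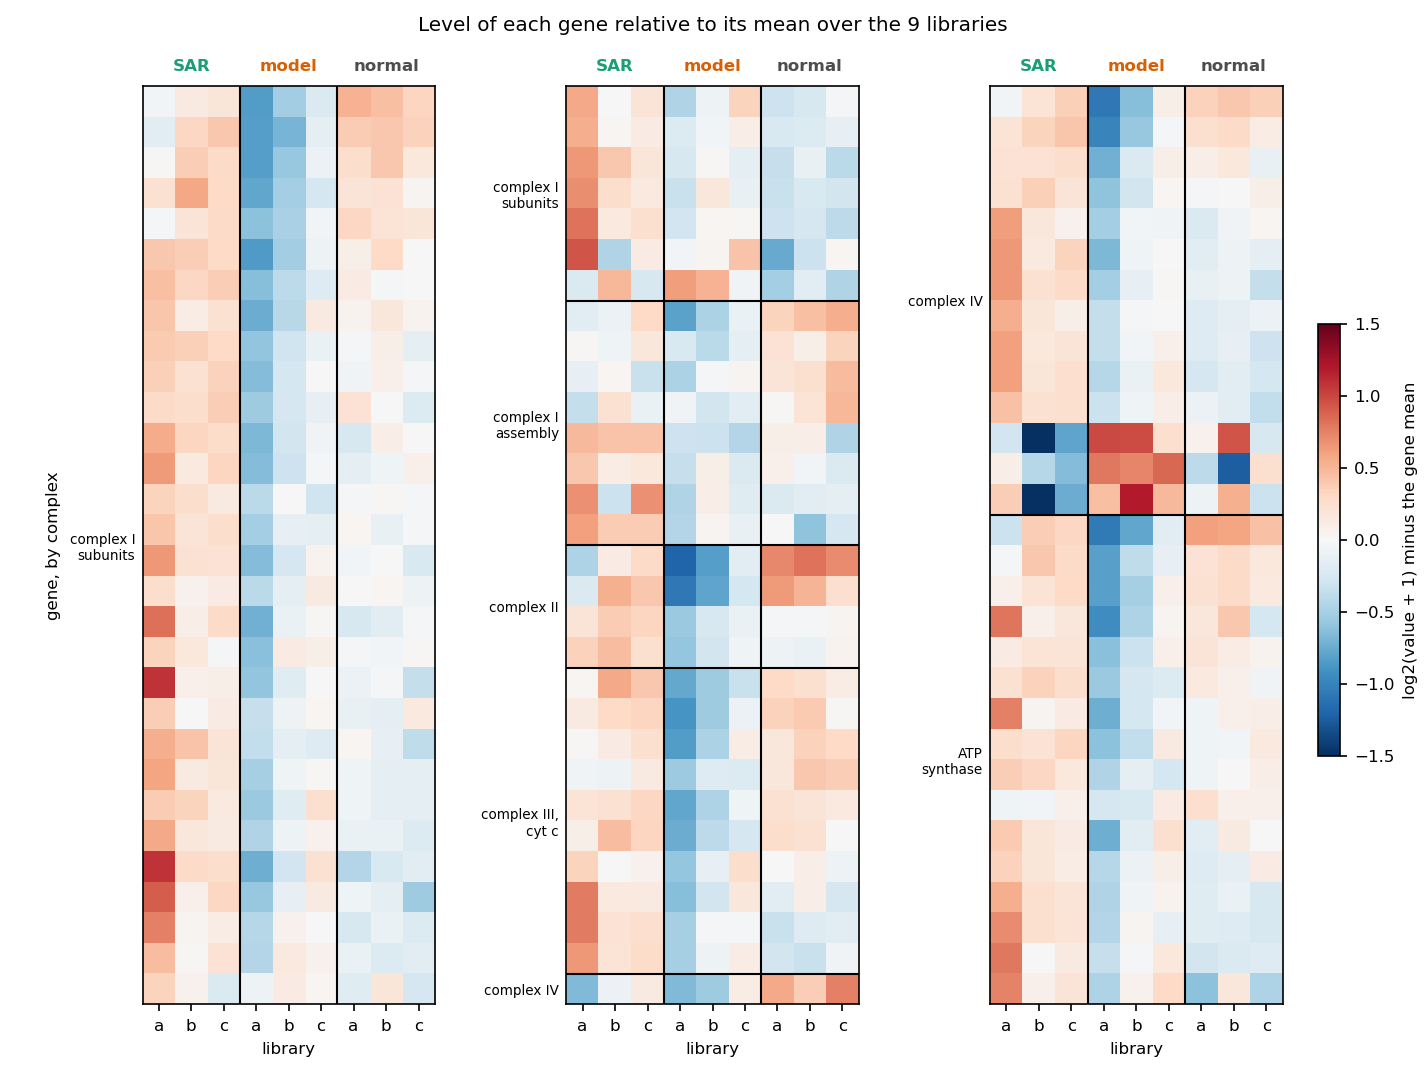
Level of the 90 genes with values in all 9 libraries (rows, grouped by complex and in order of the model over normal fold change, with the untested Cox7a1 last in complex IV) in SAR, model and normal libraries a, b and c (columns), as log2(value + 1) minus the mean of the gene over the libraries. Red is above and blue below that mean, the colour range ends at 1.5, and 2 values lie beyond it. Model library a lies below the other model libraries in most rows, with 5 of 89 genes above them.

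In complex II, which also works in the citric acid cycle, the genes Sdha and Sdhd fell in the model group. Sdhd, a membrane anchor of the complex, had 1345, 2022 and 2254 normalised reads in SAR libraries a, b and c, 807, 1042 and 1653 in model libraries and 3053, 3269 and 3032 in normal libraries. Neither SAR nor model libraries reached the normal ones. Its log2 fold change in model over normal was -1.48 ± 0.26 (SE, adjusted p = 0.00213), the lowest of all 89 genes. It was 0.71 ± 0.26 in SAR over model (adjusted p = 0.0662), and in SAR over normal -0.77 ± 0.26 (adjusted p = 0.113).

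Sdha, the flavoprotein that oxidises succinate, had 3066, 5151 and 4699 normalised reads in SAR libraries, 1696, 2054 and 2961 in model libraries and 5553, 5074 and 4254 in normal libraries. Model libraries lay below both other groups, and SAR libraries b and c lay within the normal range. It fell by 1.18 on the log2 scale in model over normal (adjusted p = 0.00539) and rose by 0.95 in SAR over model (adjusted p = 0.0223), the largest increase among the genes that passed there. Sdhb, the iron-sulphur subunit, had fold changes of -0.26 in model over normal (adjusted p = 0.209) and 0.65 in SAR over model (adjusted p = 0.0163). For Sdhc, the other membrane anchor, these were -0.30 (adjusted p = 0.123) and 0.59 (adjusted p = 0.0167). The 3 calls in SAR over model were each lost without model library a, without model library b or without SAR library b, with adjusted p of 0.0658 to 0.0911 at the highest, whereas the calls of Sdha and Sdhd in model over normal were kept in every case.

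In complex III and cytochrome c, 6 of 10 genes were lower in the model group, with a median log2 of -0.63, and 5 were higher with SAR, with a median of 0.60. Uqcrc2, a core protein of the complex, had 2182, 3172 and 2838 normalised reads in SAR libraries, 1261, 1486 and 1702 in model libraries and 2631, 2527 and 2319 in normal libraries. Model libraries lay below both other groups. It fell by 0.76 in model over normal (adjusted p = 0.00752) and rose by 0.87 in SAR over model (adjusted p = 0.00765). Uqcrc1, the partner core protein whose promoter is printed above, had fold changes of -0.63 (adjusted p = 0.0196) and 0.75 (adjusted p = 0.0146). Cyc1, the haem-bearing cytochrome c1, had fold changes of -0.75 (adjusted p = 0.0147) and 0.75 (adjusted p = 0.0228).

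Cycs, the soluble cytochrome c that carries electrons to complex IV, was lower in the model group but did not pass in SAR over model. Of the 23 genes lower in the model group 9 did not pass there, among them Uqcrh of the same list (0.53, adjusted p = 0.0899). Differences between genes were not tested. Cycs had 1865, 1826 and 2120 normalised reads in SAR libraries, 1321, 1688 and 1679 in model libraries and 2174, 2558 and 2491 in normal libraries. SAR libraries lay above all model and below all normal libraries. It fell by 0.63 in model over normal (adjusted p = 0.00848), and its fold change was 0.32 in SAR over model (adjusted p = 0.141) and -0.31 in SAR over normal (adjusted p = 0.231). Of the genes that passed in model over normal, 4 lost their call without model library a or b or without normal library a or b, with an adjusted p of up to 0.102. With SAR against model 4 of 5 lost theirs, each without model library a and without SAR library b, with an adjusted p of up to 0.138.

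**Figure D4:**
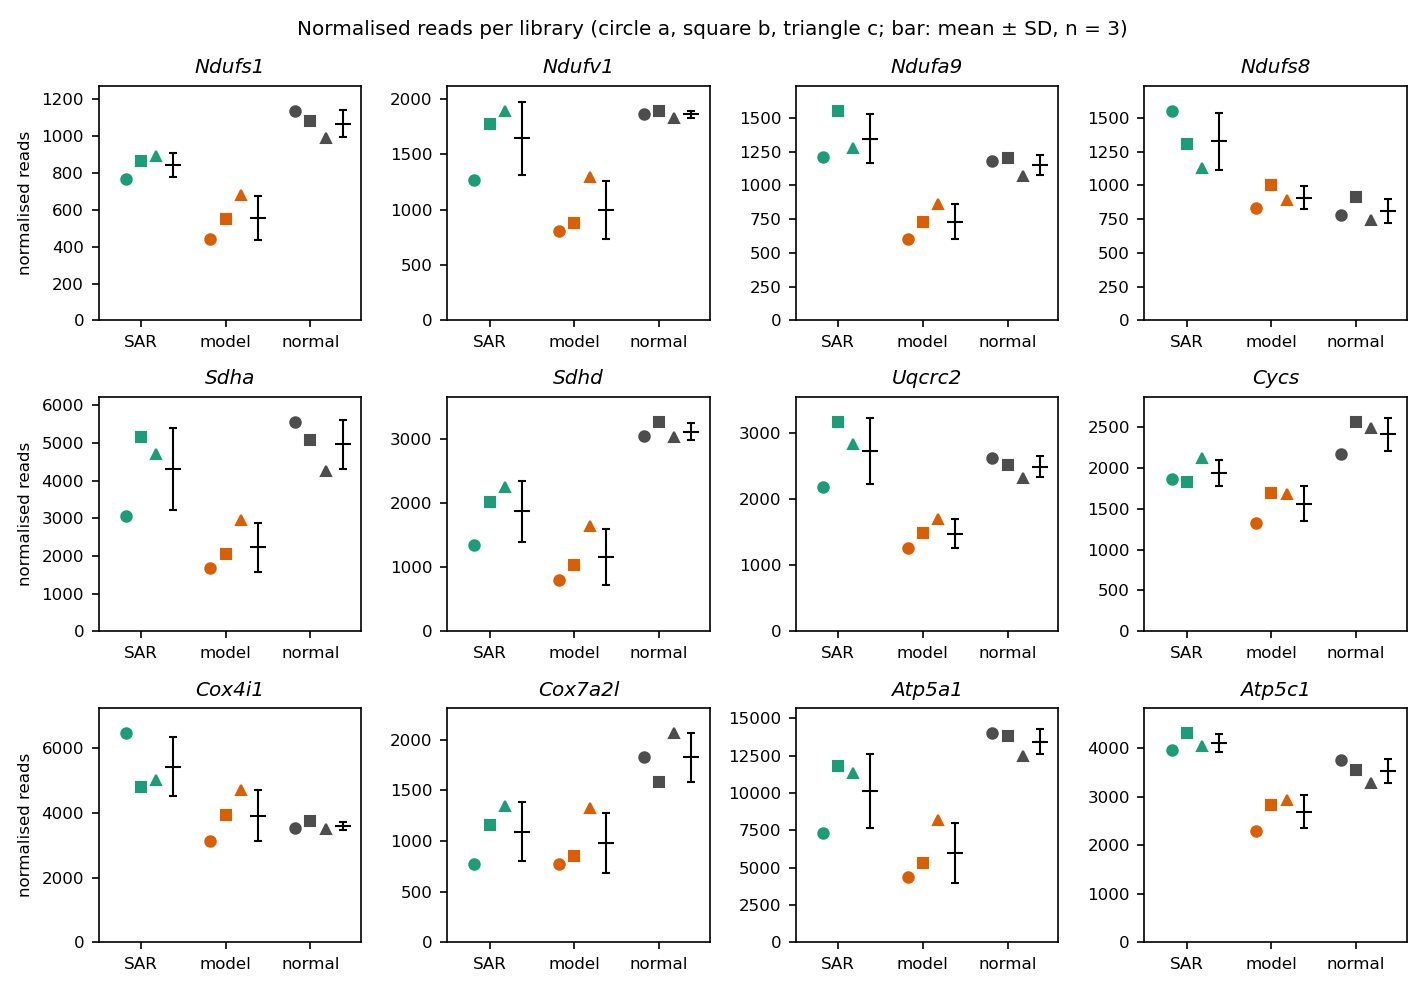
Normalised reads (y axis, from 0) of 12 genes in SAR, model and normal livers. Circles, squares and triangles are libraries a, b and c, and the bar is the mean ± SD (n = 3). Sdhd and Cox7a2l lie below the normal libraries in both SAR and model livers, whereas Ndufa9 and Atp5c1 are lowest in model livers and Ndufs8 is highest in SAR livers.

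In complex I, 7 of 37 subunits were lower in the model group, with a median log2 of -0.12, and 20 were higher with SAR, with a median of 0.55. The share lower was 18.9%, near the 21.9% of all genes tested, and the share higher with SAR was 54.1%, against 13.7%. The median in model over normal was 0.01 without model library a. Ndufa12, an accessory subunit, rose by 0.48 in SAR over model (adjusted p = 0.0252, and up to 0.0956 without model library a, SAR library a or SAR library b), with a fold change of -0.23 in model over normal (adjusted p = 0.196).

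Ndufs1, an iron-sulphur subunit, had 769, 864 and 894 normalised reads in SAR libraries, 440, 549 and 679 in model libraries and 1136, 1080 and 989 in normal libraries. The 3 groups did not overlap. It fell by 0.96 in model over normal (adjusted p = 0.00176), the lowest adjusted p of the 89 genes, rose by 0.62 in SAR over model (adjusted p = 0.0203), and had a fold change of -0.34 in SAR over normal (adjusted p = 0.223). Ndufv1, which binds NADH, had 1270, 1773 and 1886 normalised reads in SAR libraries, 807, 881 and 1294 in model libraries and 1862, 1887 and 1822 in normal libraries. SAR library a lay just under model library c. Its fold changes were -0.93 in model over normal (adjusted p = 0.00549) and 0.74 in SAR over model (adjusted p = 0.0243).

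Ndufa9, an accessory subunit at the junction of the matrix and membrane arms, had 1213, 1551 and 1277 normalised reads in SAR libraries, 604, 727 and 863 in model libraries and 1181, 1207 and 1068 in normal libraries. Model libraries lay below both other groups. It fell by 0.67 in model over normal (adjusted p = 0.00821) and rose by 0.89 in SAR over model (adjusted p = 0.0047), the lowest adjusted p of the 89 genes in that comparison. Ndufs3, a core subunit with 2 ETS motifs in its promoter, had 2224, 2020 and 2098 normalised reads in SAR libraries, 1044, 1238 and 1425 in model libraries and 1770, 1595 and 1615 in normal libraries. The 3 groups did not overlap, and the SAR libraries were highest. Its fold changes were -0.44 in model over normal (adjusted p = 0.0341) and 0.78 in SAR over model (adjusted p = 0.00512).

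Ndufs8, an iron-sulphur subunit near the quinone site, was the 1 gene of 89 that was higher in SAR than in normal livers. It had 1550, 1303 and 1125 normalised reads in SAR libraries, 834, 1002 and 892 in model libraries and 781, 913 and 746 in normal libraries. SAR libraries lay above both other groups. Its fold changes were 0.70 ± 0.15 in SAR over normal (SE, adjusted p = 0.039) and 0.54 ± 0.15 in SAR over model (adjusted p = 0.028), and 0.16 in model over normal (adjusted p = 0.416). The call against normal was lost on leaving out any library other than model library c, with an adjusted p of up to 0.139. Among the 20 subunits higher with SAR, all but Ndufa9, Ndufs3, Ndufb6 and Ndufb11 lost their call when some library was left out. Model library a was such a library for all 16, SAR library b for 14, model library b for 13 and SAR library c for 12, with an adjusted p of up to 0.182.

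Of the 8 complex I assembly factors, which join the subunits but leave the finished complex, 2 were lower in the model group and 2 higher with SAR. Both shares were 25.0%, against 21.9% of all genes tested lower and 13.7% higher, and the share lower was near that of all genes. Ndufaf4, an early-acting factor whose promoter holds the NRF1 motif, had 397, 420 and 547 normalised reads in SAR libraries, 256, 320 and 416 in model libraries and 561, 609 and 651 in normal libraries. SAR and model libraries lay below all normal ones and overlapped with each other. It fell by 0.90 in model over normal (adjusted p = 0.00479), and its fold change in SAR over model was 0.47 (adjusted p = 0.0876). Its partner Ndufaf3 fell by 0.47 in model over normal (adjusted p = 0.0346, and up to 0.122 without model library a or b or normal library a or c).

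Ndufaf1, a factor for the membrane arm, had 391, 375 and 376 normalised reads in SAR libraries, 224, 222 and 205 in model libraries and 295, 299 and 205 in normal libraries. SAR libraries lay above both other groups, which overlapped. It rose by 0.81 in SAR over model (adjusted p = 0.00733), and its fold change in model over normal was -0.27 (adjusted p = 0.197). Ndufaf6 rose by 0.63 in SAR over model (adjusted p = 0.0425), a call lost without any 1 of the SAR libraries or without model library a or b, with an adjusted p of up to 0.153.

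In complex IV, 3 of 14 tested genes were lower in the model group and 1 higher, with a median log2 of -0.07. The share lower was 21.4%, close to the 21.9% of all genes tested, and the share higher was 7.14%, against 21.4%. The median was 0.02 under upper-quartile scaling and 0.11 without model library a. With SAR 4 were higher (28.6%, against 13.7% of all genes) and 1 lower (7.14%, against 14.5%), with a median of 0.48. Cox4i1, the main isoform of a regulatory subunit, had 6460, 4794 and 5015 normalised reads in SAR libraries, 3118, 3925 and 4702 in model libraries and 3546, 3739 and 3505 in normal libraries. SAR libraries lay above all others. Its fold changes did not pass, with 0.10 in model over normal (adjusted p = 0.698) and 0.48 in SAR over model (adjusted p = 0.0964). Cox5a, a matrix-side subunit, fell by 0.91 in model over normal (adjusted p = 0.0142).

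Ndufa4, first assigned to complex I and later placed in complex IV, had 4298, 4701 and 4977 normalised reads in SAR libraries, 1878, 2505 and 3640 in model libraries and 4404, 4551 and 4022 in normal libraries. Model libraries lay below both other groups. It fell by 0.74 in model over normal (adjusted p = 0.0237) and rose by 0.85 in SAR over model (adjusted p = 0.0213). Its paralogue Ndufa4l2, known as a hypoxia-induced gene, had 18.1, 12.2 and 10.3 normalised reads in SAR libraries, 29.8, 28.5 and 31.4 in model libraries and 12.6, 6.53 and 20.01 in normal libraries. Model libraries lay above both other groups at a low level, from 37 to 41 reads each. It rose by 1.26 in model over normal (adjusted p = 0.0489), a call lost without any 1 library other than normal library c, with an adjusted p of up to 0.152.

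Cox7a2l, a member of the COX7A family, had 776, 1158 and 1344 normalised reads in SAR libraries, 772, 850 and 1322 in model libraries and 1825, 1586 and 2064 in normal libraries. SAR and model libraries overlapped, and both lay below all normal libraries. It fell by 0.93 in model over normal (adjusted p = 0.0127). Its fold changes were 0.16 in SAR over model (adjusted p = 0.649) and -0.77 in SAR over normal (adjusted p = 0.0937). Within the COX7A family, counted per base of transcript, Cox7a2l made up 24.5% ± 4.85 in SAR, 29.1% ± 2.93 in model and 38.4% ± 5.33 in normal libraries (SD, n = 3 each).

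Cox7a2, the form usual in liver, made up 75.2% ± 4.63, 70.0% ± 2.67 and 61.2% ± 5.21 of that family in SAR, model and normal libraries. Its own fold changes were -0.33 in model over normal (adjusted p = 0.184) and 0.52 in SAR over model (adjusted p = 0.0665). The calls of Cox5a and Cox7a2l in model over normal were lost without model library a or b, with an adjusted p of up to 0.0552. The call of Ndufa4 in model over normal was lost without model library a or b or normal library a or b, with an adjusted p of up to 0.0809. Its call in SAR over model was lost without model library a or b or SAR library b or c, with an adjusted p of up to 0.0759.

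Of the other isoform pairs, Cox6a1 and Cox6b1 had fold changes of 0.11 and 0.10 in model over normal and 0.40 and 0.43 in SAR over model, none of which passed. Cox6c and Cox8a rose with SAR by 0.60 (adjusted p = 0.0408) and 0.55 (adjusted p = 0.0443), and both calls were lost without any 1 library other than model library c or normal library c, with an adjusted p of up to 0.146. Isoforms known from muscle, testis or lung were scarce. Of those below the minimum mean, Cox6a2 had 8, 40 and 1 reads over the SAR, model and normal libraries. Cox4i2 had 4, 33 and 2, and Cox8b 1, 2 and 0. In the authors' deposited table Cox6a2 was higher in model than in normal livers (DESeq adjusted p = 0.0246), and Cox4i2 did not pass (0.16). Cox6b2, a testis form, had 15 reads over the SAR libraries, 84 over the model libraries and 44 over the normal libraries. It was lower in SAR than in model with a fold change of -1.74 (adjusted p = 0.0459), which missed the threshold on removal of model library a or b, SAR library b or c, or normal library a or b (adjusted p of up to 0.147). Cox7a1, the muscle form of COX7A, had 12, 50 and 22 reads over the SAR, model and normal libraries. These read numbers are not scaled for depth, and the model libraries had the highest size factors. The authors' deposited means of Cox7a1 were 14.1 in model and 8.52 in normal livers, and 5.02 in SAR and 12.9 in model livers. For Cox6b2 they were 23.4 in model and 17.1 in normal livers, and 6.32 in SAR and 21.5 in model livers. Of 5 striated muscle markers, Mylpf had means of 15.7, 16.6 and 12.8 normalised reads in SAR, model and normal libraries. Acta1 had 6.49, 1.02 and 1.01, Myh1 2.53, 0.257 and 1.05, Tnnt3 0, 0.257 and 0.693, and Ckm 0, 0.268 and 0. The summed level of these 5 was 8.54 to 39.7 in SAR, 10.2 to 27.3 in model and 13.6 to 18.5 in normal libraries.

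In the ATP synthase, 3 of 16 tested genes were lower in the model group, with a median log2 of -0.29, and 5 were higher with SAR, with a median of 0.55. The share lower was 18.75%, near the 21.9% of all genes tested, and the share higher with SAR was 31.25%, against 13.7%. Atp5a1, the alpha subunit of the catalytic head, had 7302, 11808 and 11377 normalised reads in SAR libraries, 4388, 5335 and 8208 in model libraries and 14016, 13816 and 12466 in normal libraries. SAR and model libraries overlapped and lay below all normal ones. It fell by 1.22 in model over normal (adjusted p = 0.00802), and its fold change in SAR over model was 0.78 (adjusted p = 0.0668). For Atp5b, the catalytic beta subunit, the authors' deposited table gave means of 8460 in model and 17811 in normal livers (adjusted p = 0.000182), and of 11709 in SAR and 7753 in model livers (adjusted p = 0.175).

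Atp5c1, the central rotor stalk, had 3965, 4315 and 4052 normalised reads in SAR libraries, 2306, 2839 and 2942 in model libraries and 3763, 3559 and 3278 in normal libraries. The 3 groups did not overlap, and SAR libraries were highest. It rose by 0.62 in SAR over model (adjusted p = 0.0183), and its fold change in model over normal was -0.40 (adjusted p = 0.0656). Atp5f1 and Atp5h, both of the peripheral stalk, rose by 0.66 (adjusted p = 0.0404) and 0.56 (adjusted p = 0.0214) in SAR over model. In model over normal Atp5f1 fell by 0.66 (adjusted p = 0.0274), and Atp5h had a fold change of -0.29 (adjusted p = 0.136).

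The c subunit of the proton-driven ring is encoded by Atp5g1, Atp5g2 and Atp5g3, which give the same mature protein. Counted per base of transcript, Atp5g3 made up 75.9% ± 1.59 of the family in SAR, 74.7% ± 1.27 in model and 79.4% ± 2.17 in normal libraries (SD, n = 3 each). Atp5g2 made up 18.9% ± 0.899, 19.3% ± 0.589 and 16.3% ± 1.57. Atp5g3 fell by 0.63 in model over normal (adjusted p = 0.043), Atp5g2 rose by 0.55 in SAR over model (adjusted p = 0.0452), and Atp5g1 had fold changes of -0.06 and 0.35 that did not pass. Apart from that of Atp5a1, each call of the ATP synthase genes was lost on leaving out some library, model library a in each case. The adjusted p then reached 0.145 in model over normal and 0.161 in SAR over model.

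In the comparison of SAR with normal livers, which stand in different deposited tables and were put on 1 scale here, 1 of 89 genes was higher, against 2.0% of all genes tested, and 0 were lower, against 1.98% (3.98% in either direction). The median log2 fold change was 0.29, against 0.01 over all genes. Every SAR library lay above every normal library for 49 genes, against 15.6% of all genes, and below for 8, against 16.7%. Of the 23 genes lower in the model group, 8 had a SAR mean above the normal mean. For 6 of the 23 (Sdhd, Cox7a2l, Atp5a1, Ndufaf4, Cycs and Ndufs1) every SAR library lay below every normal library. The 23 were picked as lower than these same normal libraries, which favours SAR values below normal. No matching share over all genes lower in the model group is given here. The counts of 8 and 6 can therefore not be read as particular to these genes. A p that misses the threshold does not show that SAR and normal livers were alike.

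Transcript length moved with the values in model over normal and SAR over normal, and showed little relation to those in SAR over model. Among genes under 1000 bases long 6 of 49 were lower in the model group, with a median log2 of -0.12. Of all such genes tested 79 of 713 were lower, with a median of 0.19, so the share lower was close. Among those of at least 1000 bases 17 of 39 were lower, with a median of -0.40. Of all genes tested of that length 2606 of 11560 were lower, with a median of 0.00. The SAR over model fold change had a Pearson r of 0.05 with log2 length over 88 genes. Its medians were 0.53 in the shorter and 0.55 in the longer genes, of which 19 of 49 and 20 of 39 were higher. Over all genes tested of these lengths, 102 of 713 and 1579 of 11560 were higher. In SAR over normal the short genes had a median of 0.37, the same as that of all short genes tested. SAR library a stood apart from the other SAR libraries with length, with a Pearson r of -0.52 between log2 length and its log2 difference over 88 genes, against -0.06 over 12273 genes. These genes share their libraries, so the correlation is a description. The part of length in the results was not tested.

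**Figure D5:**
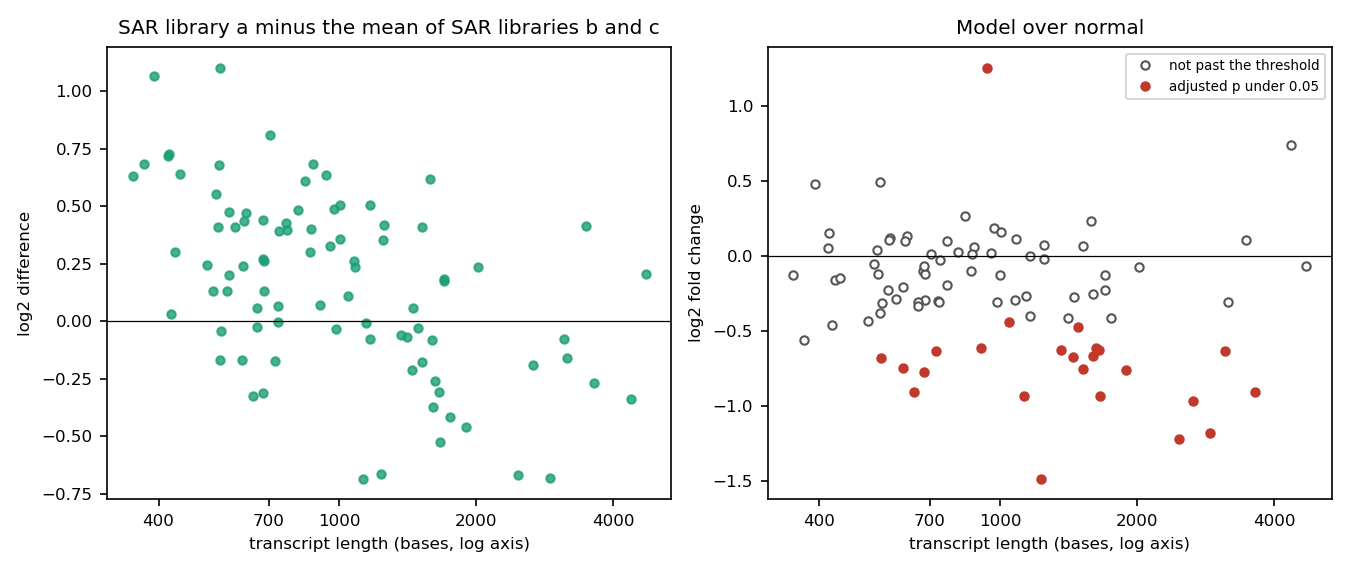
Transcript length (x axis, bases, log axis) of 88 genes against the log2 difference of SAR library a from the mean of SAR libraries b and c (left) and against the log2 fold change of model over normal (right, filled points at an adjusted p under 0.05). Long genes were low in SAR library a. In the model group 17 of 39 genes of at least 1000 bases were lower, against 2606 of 11560 over all genes tested of that length.

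Regulators of these genes were mixed. Gabpa, the DNA-binding subunit of GABP, had 342, 475 and 423 normalised reads in SAR libraries, 261, 281 and 320 in model libraries and 596, 523 and 627 in normal libraries. The 3 groups did not overlap. It fell by 1.02 in model over normal (adjusted p = 0.00109) and rose by 0.52 in SAR over model (adjusted p = 0.034). Tfam, which packages and transcribes mitochondrial DNA, fell by 0.87 (adjusted p = 0.00566) and rose by 0.61 (adjusted p = 0.0392). Ppargc1b, a coactivator, rose by 1.05 in SAR over model (adjusted p = 0.0213), with a fold change of -0.64 in model over normal (adjusted p = 0.0897). Nrf1, Ppargc1a and Esrra did not pass, with fold changes of 0.02, -0.55 and -0.38 in model over normal and -0.23, 0.38 and 0.26 in SAR over model.

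Other mitochondrial gene lists were counted in the same way. In model over normal, where 21.9% of all genes tested were lower and 21.4% higher, 8 of 13 citric acid cycle genes (61.5%), 13 of 33 further assembly factors (39.4%), 10 of 22 import genes (45.5%), 20 of 77 mitochondrial ribosome genes (26.0%) and 6 of 16 regulators (37.5%) were lower. The share of the mitochondrial ribosome was near that of all genes. Of these lists the further assembly factors had 1 gene higher and the mitochondrial ribosome 8. With SAR against model, where 13.7% of all genes were higher and 14.5% lower, the genes higher were 3 of the citric acid cycle (23.1%), 9 further assembly factors (27.3%), 6 import genes (27.3%), 19 of the mitochondrial ribosome (24.7%) and 6 regulators (37.5%), and 1 of the mitochondrial ribosome was lower. Among 7 carriers and porins 3 were lower in the model group (Slc25a3, Vdac1 and Vdac3) and 2 higher, with a median log2 of -0.49. The 2 higher ones were also the 2 that were lower with SAR, and 0 were higher with SAR. These were Slc25a4, an ADP/ATP carrier, and Ucp2, an uncoupling protein. Slc25a4 had fold changes of 2.06 in model over normal (adjusted p = 0.000673) and -1.81 in SAR over model (adjusted p = 0.00275), and Ucp2 of 1.60 (adjusted p = 0.00182) and -1.51 (adjusted p = 0.0048). These 5 genes of the list were named after their values were seen.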

How the data were processed

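Liver RNA of 9 samples was sequenced, 3 in each of the SAR, model and normal groups, with a NEBNext Ultra kit per the labels' protocols. Per the submitters' processing notes the build was mm9. No source used here gives the aligner, counter, annotation or strand setting. The authors deposited 2 tables of group means, model with normal and SAR with model. Per the file headers, the deposited signal of a gene is its group mean of reads divided by size factors, with the deposited ratio (fold) of 2 means beside it and the log2 of that ratio. The deposited p-values, raw and adjusted, come from DESeq as run by the authors, per the file headers and labels.

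The deposited means carry 15 digits. Each is a sum of 3 whole read numbers with constant weights, and the read numbers were solved from it. All 9 libraries were solved for 16427 of 16521 genes, and 94 genes, among them Atp5b in the normal group, were not and are given from the authors' tables. Model reads came out identical for 16072 of 16072 genes solved from each separately. Of 1000 means moved slightly, 0 were solved. Reads were divided by medians-of-ratios size factors over the 9 libraries.

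Genes with a mean of at least 10 were tested with limma 3.58.1 (R 4.3.3; trended variance, two-sided, Benjamini-Hochberg) on log2(value + 1) in 1 fit over the 9 libraries. Fold changes are on that scale and understate the change of low genes. The recovery and the test were tested on simulated data. An exact permutation test of 3 against 3 cannot go below 0.1 and was not used. The precision is limited by 3 libraries per group, and sums carry counting error besides.

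Genes, lists and tests were chosen with earlier results of these data known. The values of 1 further gene are not reported here by name. Named were all of complex II, Cyc1 and Cycs, isoform families, the 3 genes of lowest p per complex, direction and comparison, the 5 extremes of each comparison, genes not recovered, and 6 regulators. Symbols and transcript lengths are from GENCODE M21, with the length of the transcript of longest coding part. Promoter coordinates are on GRCm38.p6, not on the build of the files, and served only to print sequence. Alternatives were the pseudocount, the minimum mean, the scaling, the variance prior, the libraries fitted and the authors' own test.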

Additional observations from a re-analysis of the deposited data

How the results depend on the processing

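With 3 libraries a group, the median over these genes kept its sign and moved by less than its spread between libraries under every alternative run. The counts moved more. On leaving out 1 library, the count in model over normal ranged from 10 to 34 genes lower and stayed at 0 genes higher or was 1. The shares of all genes ranged from 15.2% to 24.8% lower and from 13.9% to 23.2% higher. In SAR over model the count ranged from 6 to 61 genes higher and from 0 to 1 lower. The shares of all genes there ranged from 5.67% to 19.3% and from 6.1% to 17.9%. In SAR over normal the count ranged from 0 to 2 genes higher and from 0 to 2 lower. There the shares of all genes ranged from 0.162% to 3.82% and from 0.0162% to 3.92%. Without normal library c and model library c together, the counts were 33 lower in model over normal, against 25.6% of all genes. They were 68 higher in SAR over model, against 22.3%. In SAR over normal 6 were higher and 1 lower, against 6.79% and 6.2% of all genes, so 6 of 89 was close to the share of all genes. The authors' own test called 0 of the 91 genes higher in model over normal, against 13.2% of all genes. It called 20 higher and 0 lower in SAR over model, against 6.79% and 9.76%. Ndufa4l2, the 1 gene higher in model over normal, did not pass with a pseudocount of 0.5, without a minimum mean or with only the 6 libraries compared (0 genes higher), and with one prior variance 2 genes were higher. Cox6b2, the 1 gene lower in SAR over model, did not pass without a minimum mean or with only the 6 libraries (0 genes lower). With a minimum mean of 50 neither of these genes was tested, and the counts were 0 higher in model over normal and 0 lower in SAR over model. The gene higher in SAR over normal did not pass with one prior variance or with only the 6 libraries (0 genes higher). Of 46 named genes none that passed changed its sign in any alternative. The causes of these shifts were not tested. No paired analysis was possible because the deposited columns are group means that carry no replicate numbers, and the alternative with a replicate block was not run. Abundant genes unsolved in some library and reads shared with pseudogenes limit the values.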

Other observations

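The 13 respiratory chain and ATP synthase genes encoded in mitochondrial DNA lay outside the rule by symbol, and 12 of them had a mean of at least 10. By the authors' deposited table, a fold above 1 was given for 10 of these 12 in model over normal, from 0.876 for mt-Nd6 to 1.55 for mt-Nd3, and 0 passed. In SAR over model the fold was above 1 for 12 of 12, from 1.16 to 1.46, and 0 passed. For mt-Co1, the catalytic subunit of complex IV, the folds were 1.20 in model over normal (adjusted p = 0.512) and 1.28 in SAR over model (adjusted p = 0.331). Neither list of folds was tested against the nuclear genes.

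Atpif1, the inhibitor of the ATP synthase, also lay outside the rule by symbol. It had 46.9, 15.9 and 7.76 normalised reads in SAR libraries, 40.7, 50.03 and 47.4 in model libraries and 7.75, 9.79 and 6.67 in normal libraries. Model libraries lay above all normal libraries at a low level, and SAR library a lay among the model libraries. Its fold changes were 2.38 ± 0.56 in model over normal (SE, adjusted p = 0.00762) and -1.29 ± 0.56 in SAR over model (adjusted p = 0.11).

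Cs, which encodes citrate synthase, had 1862, 1460 and 1416 normalised reads in SAR libraries, 1400, 1443 and 1699 in model libraries and 1647, 1848 and 1076 in normal libraries. The 3 groups overlapped, with fold changes of 0.02 in model over normal and 0.06 in SAR over model, neither of which passed. In the citric acid cycle list that holds Cs, 8 of 13 genes (61.5%) were lower in model than in normal livers, against 21.9% of all genes tested. Twnk, the helicase of mitochondrial DNA, had 306, 382 and 325 normalised reads in SAR libraries, 188, 206 and 203 in model libraries and 324, 386 and 329 in normal libraries. Model libraries lay below both other groups, with fold changes of -0.79 in model over normal (adjusted p = 0.00211) and 0.75 in SAR over model (adjusted p = 0.00537). These genes were named after their values were seen.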
